A study of Mus musculus with 2 samples.

Results

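The genes described here are 9 genes of the myelin sheath, *Mbp*, *Mobp*, *Mog*, *Mag*, *Cnp*, *Cldn11*, *Opalin*, *Mal* and *Ermn*, taken by symbol from the 32285 genes counted when nuclei of the mouse hippocampus were sequenced for RNA (snRNA-seq). All 9 were found in the count tables. PS19 mice carry 1 copy of a human Tau P301S transgene with intact *Zbp1* (PS19+/- *Zbp1*+/+), and PZKO mice carry the same transgene without *Zbp1* (PS19+/- *Zbp1*-/-). All animals were males aged 9 months, and every group carried the transgene. Each genotype gave 1 library, and the sources speak both of pooled hippocampi and of animals processed one by one, with no animal label in the counts, so the difference between genotypes has no replicate check, and every interval below is a 95% interval for counting error only. Levels of a gene were examined in the subtypes of oligodendrocytes, in their precursors and in the other cell classes.

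Myelin is the compacted membrane that oligodendrocytes wrap around axons, and its genes are switched on in steps as oligodendrocyte precursor cells (OPC) leave the cell cycle and mature. *Mbp* and *Mobp* encode basic proteins that hold the cytoplasmic faces of the membrane together, while *Mog* and *Mag* encode adhesion proteins of the outer and the inner face of the sheath. *Cnp* encodes an enzyme of the cytoplasmic channels, *Cldn11* the claudin of its tight junctions, *Opalin* and *Mal* transmembrane proteins, and *Ermn* an actin-binding protein of the late sheath. Transcripts of such abundant genes also leak from broken cells and enter droplets with nuclei of other kinds, so that a few molecules appear in nearly every class.

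In GRCm38 (mm10) *Mobp* lies on the plus strand at chr9:120149707-120181484, *Mog* on the minus strand at chr17:37010743-37023398, *Mag* on the minus strand at chr7:30899176-30914873 and *Cnp* on the plus strand at chr11:100574904-100591729. *Cldn11* lies on the plus strand at chr3:31149920-31164324, *Opalin* on the minus strand at chr19:41061710-41077113, *Mal* on the minus strand at chr2:127633226-127656695 and *Ermn* on the minus strand at chr2:58045113-58052864. Of the members, *Cnp* overlaps *Dnajc7* and *Ermn* overlaps *Galnt5* on the opposite strand, and both partners were counted as genes of their own. The source files used here do not state how strand and introns were counted.

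The promoters of 4 members are shown because the results below separate these genes: *Mag* was present in a few nuclei of the precursor class that nearly lacked *Mobp*, *Opalin* and *Mal*, *Opalin* differed between oligodendrocyte subtypes, and *Mal* was present in endothelial nuclei. Each runs 5′ to 3′ on the strand of the gene, from 250 bases before to 50 bases after the start in RefSeq (GRCm38.p6). Capitals mark ACAAAG, the core of many SOX sites, and CTGGNAC, a core ascribed to MYRF, on either strand. The windows are chr7:30914814-30915113 for *Mag*, which is the 1 of 3 listed starts shown here, chr9:120149492-120149791 for *Mobp*, chr19:41077064-41077363 for *Opalin* and chr2:127656646-127656945 for *Mal*.
Mag: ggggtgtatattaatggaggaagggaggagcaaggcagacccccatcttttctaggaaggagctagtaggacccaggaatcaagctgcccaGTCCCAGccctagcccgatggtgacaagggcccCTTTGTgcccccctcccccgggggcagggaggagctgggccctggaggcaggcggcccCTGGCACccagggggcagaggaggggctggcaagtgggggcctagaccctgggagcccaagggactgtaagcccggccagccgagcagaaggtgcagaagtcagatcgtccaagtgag
Mobp: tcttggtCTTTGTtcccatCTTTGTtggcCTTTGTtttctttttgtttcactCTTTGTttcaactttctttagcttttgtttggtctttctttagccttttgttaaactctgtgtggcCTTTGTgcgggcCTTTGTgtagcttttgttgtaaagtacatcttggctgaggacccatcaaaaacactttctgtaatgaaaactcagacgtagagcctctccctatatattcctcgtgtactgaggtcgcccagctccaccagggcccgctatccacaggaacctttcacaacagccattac
Opalin: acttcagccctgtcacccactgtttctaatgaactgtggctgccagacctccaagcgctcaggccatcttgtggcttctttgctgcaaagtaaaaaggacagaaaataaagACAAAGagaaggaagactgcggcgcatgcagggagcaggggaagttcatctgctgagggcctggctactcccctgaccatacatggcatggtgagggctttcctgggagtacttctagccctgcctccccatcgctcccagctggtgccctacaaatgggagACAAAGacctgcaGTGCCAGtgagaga
Mal: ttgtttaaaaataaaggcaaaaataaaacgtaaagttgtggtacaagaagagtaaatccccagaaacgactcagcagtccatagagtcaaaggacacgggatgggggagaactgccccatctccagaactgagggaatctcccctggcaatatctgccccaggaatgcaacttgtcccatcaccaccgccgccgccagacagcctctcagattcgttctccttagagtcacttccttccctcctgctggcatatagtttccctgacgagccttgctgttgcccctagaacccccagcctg
Among 32851 promoters of this length, 18.7% held ACAAAG and 19.3% held CTGGNAC on either strand. The *Mobp* window held 6 matches to ACAAAG and 0 to CTGGNAC. The *Opalin* window held 2 and 1, the *Mag* window 1 and 2, and the *Mal* window 0 of each. Of the other listed *Mag* starts, the window chr7:30914873-30915172 held 1 and 2 and the window chr7:30914272-30914571 held 0 of each. Such matches describe letters only.

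The PS19 library held 11469 nuclei with a median of 5642 unique molecular identifiers (UMIs) and the PZKO library 10920 nuclei with a median of 8342.5, and 47 barcodes occurred in both. After filtering and doublet removal 9590 and 9307 nuclei remained, in 35 clusters. All but 2 of these clusters were named as 13 classes from marker genes that include none of the members, and 4.84% and 4.32% of the nuclei stayed unnamed. *Zbp1* gave 92 UMIs in PS19 nuclei and 38 in PZKO nuclei. *Ttr*, the abundant transport protein gene of the choroid plexus, served as a measure of free RNA from that tissue: it averaged 2.47 to 3.64 UMIs per nucleus in the 12 classes other than choroid plexus cells in PS19 and 0.343 to 0.709 in PZKO. The libraries held 261 and 96 choroid plexus nuclei. Free RNA of the myelin genes need not follow *Ttr*. The median of *Mbp* over the classes other than oligodendrocytes was 1.30 UMIs per nucleus in PS19 and 1.99 in PZKO.

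Oligodendrocytes made up 2575 PS19 and 2250 PZKO nuclei, with medians of 3331 and 4259.5 UMIs, and all 9 of their marker genes were found in at least 18.8% of the nuclei in each library. These nuclei held 80.9% and 78.2% of the UMIs of the 9 members in the nuclei kept after filtering and doublet removal. The sum over the members had a median of 35 UMIs per nucleus in PS19 and 44 in PZKO, and 97.0% and 98.8% of oligodendrocyte nuclei reached 10. Among the other classes the median was between 1 and 4.

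Within oligodendrocytes the members did not move together between the libraries. *Mbp* and *Mobp* were slightly higher in PZKO, *Opalin* was level, and *Cnp*, *Cldn11*, *Mal*, *Ermn*, *Mag* and *Mog* were lower. No member was past 1.5-fold in either direction. Of 10724 genes that reached 100 UMIs in the libraries summed, 1.35% were past 1.5-fold higher and 5.06% past 1.5-fold lower, and the median log2 ratio of all genes was -0.04.

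*Mbp*, for the major basic protein, stood at 5244 CPM (counts of the gene per 1000000 UMIs of the class; interval 5197 to 5290) in PS19 and 5501 (5456 to 5547) in PZKO, a log2 ratio of PZKO over PS19 of 0.07 (0.05 to 0.09). *Mobp* stood at 1234 and 1404 CPM, a log2 ratio of 0.19 (0.15 to 0.22). Both basic protein genes were therefore higher in PZKO by more than the counting error, and by little.

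The genes of the outer and inner adhesion proteins were lower. *Mog* gave 909 CPM in PS19 and 849 in PZKO, a log2 ratio of -0.10 (-0.14 to -0.06), and *Mag* gave 1108 and 951 CPM, a log2 ratio of -0.22 (-0.26 to -0.18). The ratio of *Mog* reached 0.00 under DESeq2 size factors, so its direction rests on the scaling.

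The lowest ratios belonged to genes of the channels, the junctions and the membrane rafts. *Cnp* fell from 266 CPM in PS19 to 193 in PZKO, a log2 ratio of -0.46 (-0.55 to -0.37). *Cldn11* gave 588 and 435 CPM, a log2 ratio of -0.44 (-0.49 to -0.38), and *Mal* gave 867 and 669 CPM, a log2 ratio of -0.37 (-0.42 to -0.33). These 3 genes kept negative ratios under every alternative run, between -0.48 and -0.16.

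*Ermn* gave 485 and 409 CPM, a log2 ratio of -0.25 (-0.31 to -0.19), while *Opalin* gave 421 and 426 CPM, a log2 ratio of 0.02 (-0.05 to 0.08). The interval of *Opalin* includes 0, and its ratio ran from -0.05 to 0.12 over the alternatives. In nuclei thinned to 1000 UMIs each, a *Cnp* UMI was found in 22.0% of PS19 and 17.0% of PZKO oligodendrocytes, and a *Mobp* UMI in 63.7% and 69.8%. Before thinning the same shares were 52.7% and 52.0% for *Cnp* and 90.9% and 96.7% for *Mobp*, at the greater depth of the PZKO library. For comparison, a *Cnp* UMI occurred in 3.22% and 1.62% of thinned astrocytes, whose unthinned medians were 6894 and 8975 UMIs.

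**Figure D1:**
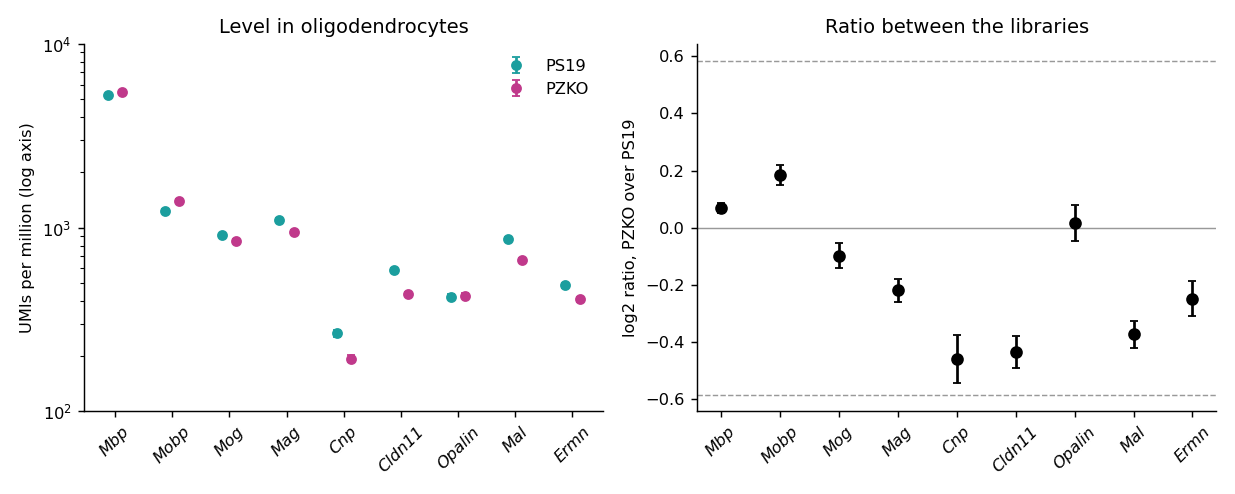
Left, level of each myelin gene in oligodendrocyte nuclei of the PS19 and PZKO libraries in CPM on a log axis; right, log2 ratio of PZKO over PS19, with dashed lines at 1.5-fold. Points are 1 library each and bars are 95% counting intervals; *Mobp* has the highest ratio, at 0.19, and *Cnp* the lowest, at -0.46.

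The wider set of 24 other myelin genes was level as a group, with a median log2 ratio of -0.00 against -0.04 for all genes tested and 12 genes on each side of 0. Only *Cryab*, a small heat shock protein gene, was past 1.5-fold, at 215 and 110 CPM, a log2 ratio of -0.97 (-1.07 to -0.86). Among the 4 genes of myelin lipid synthesis *Fa2h* stood at 0.22 (0.17 to 0.27) and *Cers2* at -0.36 (-0.49 to -0.24), and the intervals of *Ugt8a* and *Gal3st1* included 0. The 6 transcription factor genes of the lineage, *Myrf* and *Sox10* among them, had a median ratio of -0.00. The medians of the lipid and transcription groups thus lay nearer to *Opalin* than to *Cnp*.

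Over the 13 classes and both libraries (26 points), the genes whose level on the log2(CPM + 1) scale was most like the mean of the members were *Qdpr* (Pearson r = 0.94), *Hapln2* (0.93), *Kctd13* (0.92), *Rnf141* (0.91) and *Otud7b* (0.91). The members themselves had r between 0.87 for *Mog* and 0.97 for *Mobp*. Points of a library share its free RNA and depth.

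Clustering of the oligodendrocytes without any myelin gene gave 2 large subtypes. The larger held 1769 PS19 and 1559 PZKO nuclei and had more *Il33* (1196 and 983 CPM, against 709 and 641 in the other), with *7630403G23Rik*, *Ephb2*, *Kirrel3*, *Hmgcll1* and *Cacna2d3* as leading genes. Of the other genes used to name it, *Ptgds* was also higher (1613 and 893 CPM, against 565 and 336). *Apod* was lower in it (761 and 394 CPM, against 2221 and 894). *Car2* (1129 and 978, against 1213 and 1057) and *Grm3* (1534 and 1779, against 1589.5 and 1787) were slightly lower. *Fosb* was nearly absent from both subtypes. The smaller held 743 and 630 nuclei and had more *Anln* (872 and 774 CPM, against 218 and 228), *Hapln2* and *Piezo2*, with *Enpp6*, *A530053G22Rik*, *A330072L02Rik*, *Cntn3* and *Agmo* leading. The border between them moved with the clustering settings.

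*Opalin* had the highest ratio between the subtypes. It gave 509 CPM in the Il33-high and 242 in the Anln-high subtype of PS19, a log2 ratio of 1.08 (0.96 to 1.19), and 487 and 289 CPM in PZKO, a log2 ratio of 0.76 (0.65 to 0.86). *Opalin* was the only member past 1.5-fold in either library, where 6.14% of 8646 genes were past 1.5-fold higher in the Il33-high subtype of PS19 and 6.05% of 8726 genes in PZKO. The call of *Opalin* was lost in both libraries with doublets left in (0.49 and 0.36) and in PZKO with myelin genes among the variable genes (0.49), and *Mal* in PS19 passed 1.5-fold with no filter on nuclei (0.67). No member was past 1.5-fold higher in the Anln-high subtype, where 4.57% and 4.42% of genes were.

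*Mal* went the same way, at 969 and 678 CPM in PS19, a log2 ratio of 0.51 (0.44 to 0.59), and 730 and 561 CPM in PZKO, a log2 ratio of 0.38 (0.30 to 0.46). *Cnp* was also higher in the Il33-high subtype, with log2 ratios of 0.27 (0.14 to 0.40) and 0.20 (0.07 to 0.35). With the myelin genes left among the variable genes, the *Mal* ratio of PZKO was -0.07.

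*Ermn*, the late actin-binding gene, leaned to the other side, at 438 CPM in the Il33-high and 575 in the Anln-high subtype of PS19, a log2 ratio of -0.39 (-0.48 to -0.30), and at 380 and 463 CPM in PZKO, a log2 ratio of -0.28 (-0.37 to -0.19). *Mog* did so less, with ratios of -0.17 (-0.23 to -0.10) and -0.27 (-0.34 to -0.21). *Mbp* and *Mag* differed by at most 0.16 in either library, and *Cldn11* and *Mobp* by at most 0.13. The order with *Opalin*, *Mal* and *Cnp* above 0 and *Mog* and *Ermn* below it was the same in both libraries.

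**Figure D2:**
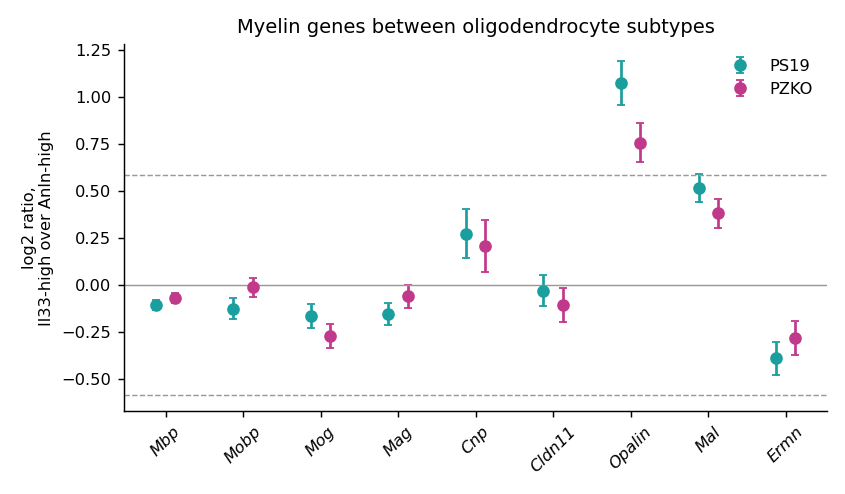
Log2 ratio of the CPM in the Il33-high over the Anln-high oligodendrocytes for each myelin gene, within the PS19 and the PZKO library; bars are 95% counting intervals and dashed lines mark 1.5-fold. *Opalin* stands highest in both libraries (1.08 and 0.76) and *Ermn* lowest (-0.39 and -0.28).

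Between genotypes the subtypes were read apart as well. *Cnp* had a log2 ratio of PZKO over PS19 of -0.46 in the Il33-high and -0.39 in the Anln-high subtype, *Cldn11* -0.47 and -0.39, and *Mobp* 0.23 and 0.12. *Opalin* had -0.06 (-0.14 to 0.01) in the Il33-high and 0.26 (0.12 to 0.40) in the Anln-high subtype, intervals that do not meet. The difference was not tested, since each arm is 1 library. No member was past 1.5-fold in either subtype, where 1.39% of genes were higher and 5.32% lower in the Il33-high, and 1.56% higher and 4.87% lower in the Anln-high oligodendrocytes.

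Of 3 small groups of oligodendrocytes, 25 nuclei (12 from PS19 and 13 from PZKO) were led by *9630013A20Rik*, *Prom1*, *Pdzrn3*, *Cemip2* and *Kank1*, and held 6 of 8 markers of newly formed oligodendrocytes in at least 10% of nuclei. The other 2 were *Enpp6* and *Bmp4*, and the counted *Mpzl1* was lower (13.8 and 100.2 CPM) than in the Il33-high subtype (130 and 176). At lower depth the interferon-led group held 4 of the 8 and the Anln-high subtype 3. Within the 25 nuclei the libraries differed: *Tcf7l2* stood at 96.8 CPM in PS19 and 802 in PZKO, and *Itpr2* at 69.1 and 406. *Tnr* stood at 27.7 and 215 and *Rras2* at 34.6 and 521, while *Gpr17* stood at 20.7 and 15.0. *Tcf7l2*, *Itpr2*, *Tnr* and *Rras2* were found in 16.7% to 75% of the PS19 nuclei and in 30.8% to 46.2% of the PZKO nuclei. The 25 nuclei were deep, with a median of 12325 UMIs, and nearly lacked *Anln* (6.91 and 15.0 CPM). *Mbp* stood at 9362 CPM in PS19 and 10544 in PZKO there, and over both libraries it was 0.95 (0.90 to 0.996) above the Il33-high subtype on the log2 scale. *Mobp* was 1.21 (1.12 to 1.30) and *Opalin* 0.84 (0.67 to 1.01) above it, whereas *Ermn* differed by -0.06 (-0.31 to 0.19).

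A further 32 nuclei (21 and 11) were led by *Cdkn1a*, *2810403D21Rik*, *Kit*, *Mdm2* and *Gm10701*, with genes of the p53 response among them and *Ttr* among the leading 8. Members were low there: *Mbp* stood at 1070 CPM in PS19 and 1027 in PZKO, -2.31 (-2.60 to -2.03) below the Il33-high subtype on the log2 scale, and *Mag* at -2.98 (-3.94 to -2.18). *Ermn* differed least, at -0.20 (-0.73 to 0.28), and *Cnp* by -0.81 (-1.72 to -0.04). The part of free RNA in these values was not tested.

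The third group of 67 nuclei (30 and 37) was led by the interferon-response genes *Oasl2*, *Ddx60*, *Usp18*, *Irgm2* and *Parp9*. Relative to the Il33-high subtype its members ran, on the log2 scale, from -0.49 (-0.77 to -0.22) for *Opalin* to 0.32 (0.09 to 0.55) for *Ermn*. *Mal* stood at -0.47 (-0.68 to -0.27), *Mag* at 0.23 (0.07 to 0.38) and *Mbp* at -0.12 (-0.20 to -0.05). On the same scale the Anln-high subtype had *Opalin* at -0.90, *Mal* at -0.45, *Ermn* at 0.34, *Mag* at 0.11 and *Mbp* at 0.09.

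In the OPC class (213 and 214 nuclei, medians of 6797 and 10377.5 UMIs) *Mbp* rose from 149 CPM in PS19 to 520 in PZKO, a log2 ratio of 1.80 (1.59 to 2.01). *Mag* stood at a log2 ratio of 1.02 (0.47 to 1.61) and *Mal* at -1.59 (-2.21 to -1.0001). Of 6 members with at least 100 UMIs, 2 were past 1.5-fold higher and 1 lower, where 3.36% of 6012 genes were higher and 5.64% lower. In PZKO 64.0% of the *Mbp* UMIs lay in the 5% of OPC nuclei with the most, against 27.0% in PS19. The removal of doublets decided this result: relative to oligodendrocytes, *Mbp* in OPC stood at 2.85% in PS19 and 9.45% in PZKO, and with doublets left in at 14.4% and 11.7%, so that PZKO was no longer higher.

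Many of these UMIs sat in a few nuclei with another set of lineage genes. Nuclei of the class with 10 or more UMIs of *Enpp6*, which is no member, numbered 10 in PZKO and 0 in PS19. This fixed threshold takes no account of depth, and the class had medians of 6797 UMIs in PS19 and 10377.5 in PZKO. Both the gene and the threshold were chosen after the values were seen. The 11 PZKO nuclei of the class with the most *Mbp* held 312 *Enpp6* UMIs, against 55 in the other 203. The choice was thus not independent of *Mbp*, and the high *Mbp* of the 10 nuclei is a description. *Enpp6* is known from newly formed oligodendrocytes, but here it was also found in 61.5% and 65.4% of Anln-high nuclei (315 and 295 CPM). The median of the 10 nuclei was 19872 UMIs, against 10124 in the other PZKO nuclei of the class. They held 2 *Pdgfra* UMIs in all (10.8 CPM, against 860 CPM in the other 204 PZKO nuclei of the class), with *Tcf7l2* at 2087 CPM, *Itpr2* at 2135 and *Bmp4* at 367. *Pdgfra* is the receptor that defines OPC, and the other 3 genes are known from cells committed to differentiate. In the other 204 PZKO nuclei of the class these 3 stood at 188, 723 and 36.7 CPM. There *Itpr2* was found in 192 nuclei and *Tcf7l2* in 143, so neither was confined to the 10 nuclei.

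The 9 members split sharply in these 10 nuclei. *Mbp* stood at 3764 CPM (3490 to 4054), with 2 to 160 UMIs per nucleus and a median of 59. *Mag* gave 307 CPM (233 to 398.2) from 57 UMIs in 8 nuclei, *Cldn11* 189 (131 to 262) from 35 UMIs in 8 nuclei, *Cnp* 119 (74.3 to 180) from 22 UMIs in 9 nuclei and *Mog* 119 (74.3 to 180) from 22 UMIs in 6 nuclei. These 5 genes lay above the other PZKO nuclei of the class, which stood at 240, 27.0, 22.3, 17.7 and 10.7 CPM.

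*Mobp*, *Mal*, *Ermn* and *Opalin* were nearly absent from the same 10 nuclei. *Mobp* gave 1 UMI (5.39 CPM, 0.137 to 30.04), *Mal* 1 UMI (5.39 CPM, 0.137 to 30.04), *Ermn* 2 UMIs (10.8 CPM, 1.31 to 39.0) and *Opalin* 3 UMIs (16.2 CPM, 3.34 to 47.3), out of 185453 UMIs. In the 204 other nuclei the same genes stood at 42.8, 16.7, 2.32 and 6.51 CPM. In the 13 PZKO nuclei of the *Prom1*-led group they stood at 2922, 792, 336 and 927 CPM, so the basic protein genes *Mbp* and *Mobp* parted in the *Enpp6* nuclei and were both high in the *Prom1*-led nuclei.

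Without the *Enpp6* nuclei the log2 ratio of *Mbp* in the OPC class was 0.69 (0.46 to 0.92), that of *Mag* 0.15 (-0.47 to 0.80), and that of *Mal* -1.51 (-2.13 to -0.92). As the nuclei left out were known to be high in *Mbp*, the lower *Mbp* ratio follows from their choice. Whether PS19 hippocampi hold fewer such nuclei cannot be told from 1 library each, and 0 of 213 nuclei allows a share of up to 1.41%. In the deeper PZKO library 10 of 214 nuclei passed the same threshold.

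**Figure D3:**
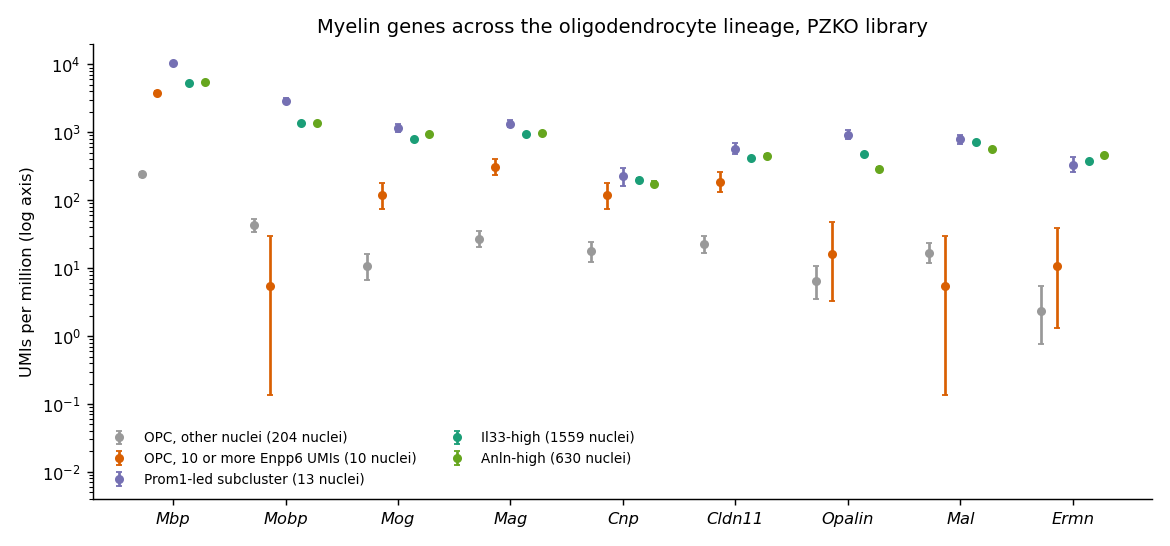
Level of each myelin gene in CPM (log axis) in 5 groups of PZKO nuclei of the oligodendrocyte lineage. They are nuclei of the OPC class with fewer than 10 *Enpp6* UMIs, those with 10 or more, the *Prom1*-led group, and the Il33-high and Anln-high subtypes. The nuclei with 10 or more were clustered with OPC but held only 2 *Pdgfra* UMIs in all. Bars are 95% counting intervals. In the 10 *Enpp6* nuclei *Mbp* stands at 3764 while *Mobp* and *Mal* stand at 5.39.

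In classes other than oligodendrocytes the members were low, with few exceptions. Over these 12 classes, OPC included, and 9 members, the median CPM was 3.64% of that in oligodendrocytes in PS19 and 3.12% in PZKO. With doublets left in it was 5.002% and 5.02%. Counted per nucleus, the range of a member between classes depended on which classes were included. Over all 12 classes *Mal* averaged 0.241 to 1.33 UMIs in PS19 and 0.173 to 1.42 in PZKO, and *Mbp* reached 5.68 in PZKO. Outside endothelial cells *Mal* averaged 0.241 to 0.440 UMIs in PS19 and 0.173 to 0.406 in PZKO. *Mbp* averaged 0.971 to 2.31 UMIs in PS19 and, outside OPC, 1.55 to 3.54 in PZKO, and was found in 44.95% (PS19 VLMC) to 84.7% (PZKO excitatory neurons) of the nuclei of a class. *Mog* ranged from 0.0292 to 0.219 UMIs per nucleus and *Ermn* from 0.0185 to 0.146 in PS19, with no class left out. *Mag* ranged from 0.104 to 0.537 in PZKO, where OPC stood highest and inhibitory neurons next, at 0.399.

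The level in other classes relative to oligodendrocytes differed between members, and how much of it is free RNA was not tested. *Cnp* had the highest median over the classes, at 12.4% of its oligodendrocyte level in PS19 and 11.8% in PZKO, and *Mog* the lowest, at 1.23% and 0.967%. *Opalin* stood at 1.61% and 1.57%, *Mag* at 2.07% and 2.73%, *Mbp* at 4.51% and 4.48%, and *Mal* at 5.16% and 4.44%. By this measure, which includes free RNA, *Cnp* was the least and *Mog* the most concentrated in oligodendrocyte nuclei in both libraries.

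In barcodes of few UMIs the members were present as well. A cluster of 358 PS19 and 251 PZKO barcodes, with medians of 829.5 and 813 UMIs, held *Mbp* at 1503 and 2009 CPM, *Cnp* at 168 and 185 CPM and *Mog* at 66.5 and 55.6 CPM. In the barcodes with the fewest UMIs (115 and 109) the order of the libraries was the other way for *Mbp*, at 2298 and 1395 CPM, and for *Cnp*, at 328 and 151 CPM, the latter from 20 and 9 UMIs.

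*Mal* in endothelial nuclei stood far outside this pattern. It averaged 1.33 UMIs per nucleus in the 312 PS19 and 1.42 in the 310 PZKO endothelial nuclei, with the next class at 0.440 and 0.406. That is 387 CPM (351 to 426) and 337 CPM (306 to 370), or 44.7% (40.4 to 49.3) and 50.4% (45.7 to 55.5) of the level in oligodendrocytes. The other 8 members in the same nuclei ranged from 1.95% to 14.8% in PS19 and from 2.52% to 16.6% in PZKO.

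A *Mal* UMI was found in 49.4% and 51.9% of endothelial nuclei, and in 24.3% and 29.8% after thinning to 1000 UMIs. PS19 endothelial nuclei with a *Mal* UMI held 1.19 *Mbp* UMIs on average (1.02 to 1.37) and those without 1.20 (1.04 to 1.39), with intervals that overlap. In PZKO the same averages were 2.19 (1.96 to 2.43) and 1.03 (0.877 to 1.21). Nuclei with a *Mal* UMI were deeper in both libraries, with medians of 3156 against 2001.5 total UMIs in PS19 and 3454 against 1995 in PZKO. Taking the medians of genes and classes into account, *Mal* in endothelial nuclei exceeded the level set by both by 2.38 and 2.39 on the log2 scale.

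*Cldn11* in vascular leptomeningeal cells (VLMC) was another exception. It averaged 0.486 UMIs per nucleus in 109 PS19 nuclei and 0.325 in 191 PZKO nuclei, 18.0% (13.4 to 23.5) and 11.8% (9.01 to 15.1) of its oligodendrocyte CPM, with an excess of 0.89 and 1.05 on the log2 scale. Per nucleus, OPC of PZKO held more, at 0.388. VLMC line the meninges, where claudins seal the arachnoid barrier. The UMI counts were small (53 and 62), and *Cldn11* UMIs in these nuclei came with more *Mbp*, 1.81 against 0.949 UMIs in PS19 and 2.89 against 1.46 in PZKO.

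*Mog* in inhibitory neurons had an excess of 1.34 and 1.002, at 0.219 and 0.253 UMIs per nucleus, but this belonged to few nuclei. Its level relative to oligodendrocytes, 1.12% and 0.905%, was 2.50% and 2.50% with doublets left in, 0.752% in PS19 with free RNA subtracted and 0.598% in PZKO after thinning. The 5% of nuclei with the most held 72.2% and 70.1% of the *Mog* UMIs. The 10 PS19 and 15 PZKO inhibitory nuclei with 3 or more *Mog* UMIs averaged 21.3 (18.5 to 24.4) and 36.2 (33.2 to 39.4) *Mbp* UMIs. Those without *Mog* averaged 1.62 and 2.03. The mean of oligodendrocyte nuclei was 18.9 and 25.6, inside the interval in PS19 and below it in PZKO. The nuclei with 3 or more were deep, with medians of 27220 and 49495 UMIs, against 3331 and 4259.5 in oligodendrocytes. Inhibitory *Mog* thus came with *Mbp* in both libraries, and the part of remaining doublets was not tested.

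**Figure D4:**
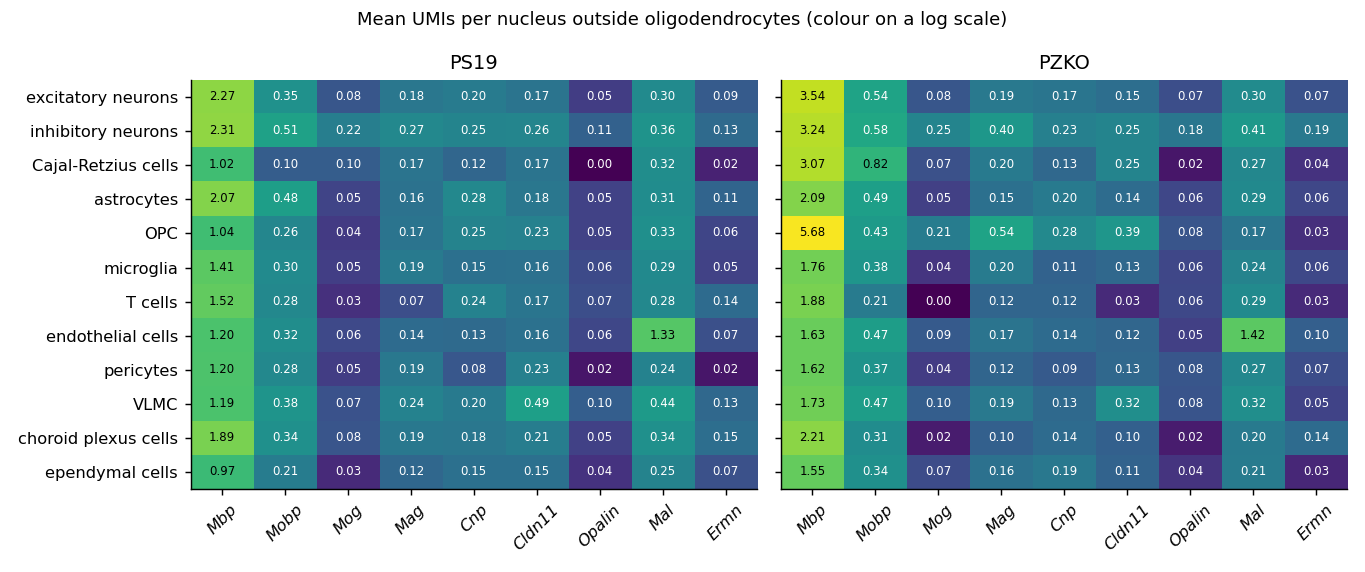
Mean UMIs per nucleus of each myelin gene in the 12 classes other than oligodendrocytes, for the PS19 (left) and the PZKO library (right), with the value in each cell and colour on a log scale. *Mal* in endothelial cells (1.33 and 1.42) and *Mbp* in PZKO OPC (5.68) stand out of their columns.

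*Mbp* in excitatory neurons had another ratio to *Mobp* than in oligodendrocytes. Oligodendrocytes held 4.25 *Mbp* UMIs per *Mobp* UMI in PS19 and 3.92 in PZKO. Astrocytes (4.29 and 4.29), microglia (4.72 and 4.65), endothelial cells (3.77 and 3.49) and pericytes (4.33 and 4.43) were close to it, and excitatory neurons held 6.56 and 6.59. Other classes also lay above it: choroid plexus cells held 5.55 and 7.07, inhibitory neurons 4.50 and 5.54, T cells, on 8 and 7 *Mobp* UMIs, 5.5 and 9.14, and OPC of PZKO 13.1.

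The ratio was uneven between clusters of excitatory neurons. A cluster of 43 PS19 and 85 PZKO nuclei led by *L3mbtl4*, *Gm6260*, *Gm19410* and *Qrfpr* held 21.7 and 19.9 *Mbp* UMIs per *Mobp* UMI, on 7 and 34 *Mobp* UMIs. Its means were 3.53 and 7.98 *Mbp* and 0.163 and 0.400 *Mobp* UMIs per nucleus. A second, of 64 and 100 nuclei led by *Fn1*, *Shoc1* and *Gm6260*, held 11.3 and 13.1. Relative to the other neuronal clusters, over both libraries, *Mbp* stood at log2 ratios of 0.43 in the *L3mbtl4*-led and 0.18 in the *Fn1*-led cluster. *Mobp* stood at -1.30 and -0.84, so on the CPM scale low *Mobp* made up more of these ratios than high *Mbp*. Counts per nucleus differed: the *Fn1*-led cluster held 3.70 and 5.75 *Mbp* UMIs, against 2.27 and 3.54 in all excitatory neurons. For *Mobp* the same means were 0.328 and 0.440, against 0.346 and 0.538. On this scale high *Mbp* made up more in the *Fn1*-led cluster, and in the *L3mbtl4*-led cluster of PZKO but not of PS19. Excitatory clusters led by *Tshz2* (4.09 and 3.51) and by *D130079A08Rik* (3.81 and 2.35) lay below the oligodendrocyte ratio. In the *Prox1* cluster of 1010 and 513 nuclei, which holds the dentate granule gene *Prox1* among its leading genes, the ratio was 7.10 and 6.52. These clusters were chosen for this ratio after their values were seen, so the values are a description. A longer transcript unit over *Mbp*, known as Golli, is used in some neurons, and counts per gene do not tell the 2 kinds of transcript apart.

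**Figure D5:**
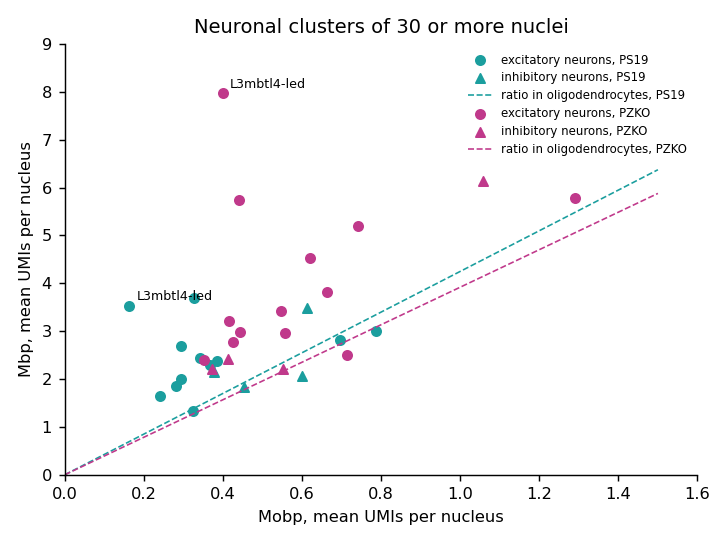
Mean *Mbp* against mean *Mobp* UMIs per nucleus in clusters of excitatory (circles) and inhibitory neurons (triangles) with 30 or more nuclei in a library, in the PS19 and PZKO libraries; dashed lines give the ratio in oligodendrocytes (4.25 and 3.92). The *L3mbtl4*-led cluster lies farthest above the lines, at 3.53 and 7.98 *Mbp* UMIs.

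Between the libraries, members in the other large classes mostly had lower CPM in PZKO. In astrocytes all 9 had a ratio below 0 with a median of -0.44, and 3 (*Cnp*, *Cldn11* and *Ermn*) were past 1.5-fold lower, where 6% of 11858 genes were. In excitatory neurons 7 of 9 were below 0 (median -0.56) and 3 past 1.5-fold lower, where 5.17% of 16007 genes were, and in inhibitory neurons 8 of 9 (median -0.40) and 2, where 4.81% of 12595 genes were. In microglia 7 of 7 were below 0 (median -0.45) and 3 past 1.5-fold lower, where 3.89% of 8584 genes were. In VLMC 2 of 4 members were past 1.5-fold lower, where 6.97% of genes were, and in choroid plexus cells 2 of 3, where 5.07% were. No member was past 1.5-fold higher in these 6 classes, where 1.21% of genes in astrocytes, 2.27% in excitatory neurons, 1.94% in inhibitory neurons, 2.16% in microglia, 6.77% in VLMC and 1.39% in choroid plexus cells were.

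The remaining classes had few members at 100 UMIs, and none of those was past 1.5-fold. Endothelial cells had 3 such members, where 2.69% of genes were higher and 2.25% lower. Ependymal cells had 1, where 3.35% were higher and 4.6% lower, and pericytes 1, where 5.68% were higher and 4.03% lower. Cajal-Retzius cells had 1, where 13.1% were higher and 8.71% lower, and T cells 1, where 10.3% were higher and 12.8% lower.

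On the scale of UMIs per nucleus the same comparison looked different, the PZKO library being deeper. *Mbp* per astrocyte nucleus was 2.07 in PS19 and 2.09 in PZKO, and *Mal* 0.312 and 0.293. *Cnp* fell on both scales, from 0.279 to 0.197 UMIs per astrocyte nucleus, and *Ermn* from 0.115 to 0.0572.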

How the data were processed

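Nuclei from hippocampi of 5 males of each genotype were profiled with the 10x 3′ assay, 1 library per genotype (whether tissue was pooled or animals were processed apart differs between the sources), and groups were taken from the genotype labels. The authors deposited gene by barcode matrices of raw UMI counts on mm10; the submitters' processing notes name Cell Ranger 7.0.1 and Seurat, while the matrix header names Cell Ranger 8.0.1. Intron and strand settings are not given in the sources used here. From these counts, barcodes under 600 UMIs, under 300 genes or over 5% mitochondrial UMIs were dropped, and doublets were scored by simulation and removed at 0.8% per 1000 barcodes. Python 3.11.15, scanpy 1.11.5, leidenalg 0.10.2 and scikit-learn 1.9.0 were used, with 2000 variable genes that included no myelin gene, 30 components, 20 neighbours and resolution 1 (0.3 for oligodendrocytes). Clusters were named from marker genes; the naming score, the limits for leaving a cluster unnamed and the 5% limit for small oligodendrocyte groups were set after clusters had been seen.

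Counts were summed per library and class and given as CPM with exact Poisson intervals, ratios with exact conditional binomial intervals and shares with exact binomial ones. With 1 library per group no test was possible. Ratios used genes with at least 100 UMIs, and calls mean past 1.5-fold. The ratio step was tested on simulated data for oligodendrocytes, PZKO over PS19: of 10724 genes, 95.2% had the true ratio inside the interval, and 99.5% of 200 changed genes were called. Only counting error was simulated, so this coverage follows from the design. All changed genes were set past 1.5-fold, so smaller differences and variation between animals were not tested. The genes most like the members were the 5 with the highest Pearson r. Cluster-leading genes, the *Enpp6* nuclei, the small oligodendrocyte groups and the neuron clusters were picked after their values were seen. The members and gene lists were chosen with earlier results of these data known. Alternatives changed the filter, doublets, clustering, scaling (edgeR 4.0.16, DESeq2 1.42.0, R 4.3.3), free RNA and depth.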

Additional observations from a re-analysis of the deposited data

Results flagged for a closer look

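In 7 cases a member with at least 100 UMIs had log2 ratios of PZKO over PS19 of opposite sign in oligodendrocytes and in another class. Each had a counting interval clear of 0. Below that limit, *Mog* in OPC (9 and 45 UMIs) stood at 1.67 (0.62 to 2.89) against -0.10 in oligodendrocytes. Without the 10 *Enpp6* nuclei it stood at 0.82 (-0.35 to 2.12). The differences were not tested, since each genotype is 1 library. *Mag* stood at 1.02 in OPC against -0.22 in oligodendrocytes, and at 0.15 (-0.47 to 0.80) in OPC without the 10 *Enpp6* nuclei. *Mbp*, at 0.07 in oligodendrocytes, stood at -0.33 in astrocytes, -0.34 in choroid plexus cells and -0.12 in inhibitory neurons. *Mobp*, at 0.19 in oligodendrocytes, stood at -0.34 in astrocytes, -0.69 in choroid plexus cells and -0.42 in inhibitory neurons. All these are ratios of CPM, and the PZKO library was deeper. Per nucleus *Mbp* was not lower in PZKO: 2.07 and 2.09 UMIs in astrocytes, 1.89 and 2.21 in choroid plexus cells, 2.31 and 3.24 in inhibitory neurons. *Mobp* per nucleus was lower only in choroid plexus cells (0.341 and 0.3125), against 0.484 and 0.487 in astrocytes and 0.513 and 0.585 in inhibitory neurons.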

How the results depend on the processing

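The median log2 ratio of the 9 members in oligodendrocytes, -0.22, became -0.16 with a stricter filter on nuclei, -0.15 with TMM factors and -0.12 with DESeq2 size factors, under which the median of the 24 other myelin genes became 0.10. The median ratio between the subtypes of PS19, -0.11, became -0.073 with no filter, -0.042 with doublets left in, -0.055 with each library clustered on its own, -0.031 with myelin genes among the variable genes, -0.076 with no centring by library, -0.16 with TMM, -0.15 with DESeq2 and -0.14 after thinning. That of PZKO, -0.06, became 0.015 with each library clustered on its own. With genes of at least 1 UMI in each library, 1530 were past 1.5-fold higher and 2942 lower in oligodendrocytes, against 145 and 543. The *Opalin* ratio between subtypes ran from 0.49 to 1.47 in PS19 and from 0.36 to 1.55 in PZKO. The level of *Mal* in endothelial cells ran from 35.3% to 44.7% of that in oligodendrocytes in PS19 and from 38.9% to 51.5% in PZKO. The median over other classes in PZKO was 3.12% and became 5.02% with doublets left in. No paired analysis was possible because each genotype has 1 library, and for the same reason no replicate could be left out. Depth limits the small classes, where some members had under 20 UMIs.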

Other observations

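Barcodes removed as doublets held a median of 13 member UMIs in PS19 and 19 in PZKO, and those below the filter 4 and 6, against 35 and 44 in oligodendrocyte nuclei. Of the removed doublets 55.4% and 59.8% held 10 or more member UMIs.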
